A study of Homo sapiens with 8 samples.

Results

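The genes described here encode the proteins of the cytosolic ribosome. They were chosen by gene name, as RPL or RPS followed by a number (with a closing A, X or L where present) together with RPLP0, RPLP1, RPLP2 and RPSA, and names of pseudogenes were left out. This gave 84 genes of the 35940 gene symbols in the table, 52 of the large and 32 of the small subunit, of which 82 passed the filter on low values. The cells were ESI017, a line of human embryonic stem cells labelled wild type. They were differentiated toward posterior neural fate in N2B27, a serum-free medium, with the compounds SB (10 µM) and LDN (100 nM), and WNT3A protein (300 ng/mL) was added at 34 h. The 4 groups were the 34 h cells, which had SB and LDN but no added WNT3A, and cells taken at 42, 50 and 72 h, after WNT3A was added. Each group had 2 libraries, replicates 1 and 2, labelled as batches 1 and 2. All groups share the line, the medium, SB and LDN, and no cells of the later times without WNT3A were analysed here, so time and WNT3A cannot be told apart.

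A ribosome holds 1 copy of most of its proteins, joined to ribosomal RNA in a large subunit, which forms peptide bonds, and a small subunit, which reads the messenger RNA. Cells make these proteins in matched amounts, and their messenger RNAs are among the most abundant of growing stem cells. In vertebrates many of them start with a C followed by a run of pyrimidines, the 5′ terminal oligopyrimidine (TOP) motif, through which mTOR signalling sets how strongly they are translated. A few genes encode paralogs (RPL22L1, RPL3L, RPS27L and others) that can take the place of the usual protein or act outside the ribosome.

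Transcript levels were given as TPM, a share of a library per transcript length, so that levels of different genes can be compared. The depth of the libraries is unknown, as TPM keeps no record of it. Each library had between 13860 and 14004 genes at 1 TPM or more. Mitochondrially encoded genes took 8.70% to 11.2% of the TPM, with more in replicate 2 at 34, 42 and 50 h and more in replicate 1 at 72 h. The 6 pluripotency markers summed to 3681 and 3749 TPM at 34 h and to 1746 and 1809 TPM at 72 h, and 4 of the 6 were lowered at 72 h by limma. The 6 neural progenitor markers summed to 381 and 400 TPM at 34 h and to 691 and 741 TPM at 72 h, and 5 of the 6 were raised. The 8 mesendoderm markers summed to at most 22.5 TPM in any library and to at most 4.25 TPM at 72 h, with 1 listed at 0 everywhere and 3 under 1 TPM everywhere. Of the 4 mesendoderm markers tested 1 was raised at 42 h, 2 were raised and 1 lowered at 50 h, and 1 was lowered at 72 h, each against 34 h. TBXT, a primitive streak marker, stood at 0.831 and 1.16 TPM at 34 h, 11.4 and 7.92 at 42 h, 9.62 and 6.83 at 50 h, then 1.62 and 1.87 TPM at 72 h. FOXA2, the lowered mesendoderm marker, fell at each step, with means of 12.7, 7.38, 5.73 and 0.720 TPM in order of time. Its change between 34 and 72 h was -2.99 (limma adjusted p = 1.91e-05). FOXA2 made up most of the mesendoderm sum of the 34 h libraries, which was 13.9 to 15.4 TPM. The 5 neural crest markers summed to at most 14.1 TPM, and of 4 tested 2 were raised and 1 lowered at 72 h. The 6 neuron markers, with 2 under 1 TPM in every library, summed to between 213 and 266 TPM at 34 h and to between 183 and 215 TPM at 72 h, which overlapped. Most of the sum was TUBB3, at 261 and 210 TPM at 34 h and at 168 and 201 TPM at 72 h (change -0.34, limma adjusted p = 0.209). Of 4 neuron markers tested 2 were raised at 72 h, DCX and STMN2, the latter listed at 0.320 and 0.256 TPM at 34 h and at 8.01 and 7.10 TPM at 72 h.

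The ribosomal protein genes together held about 20% of all TPM, and the share was highest at 72 h. It was 19.7% and 20.2% at 34 h, 19.96% and 20.06% at 42 h, 20.2% and 19.9% at 50 h, then 20.8% and 21.2% at 72 h in replicates 1 and 2. The shares of 34, 42 and 50 h overlapped, and both 72 h libraries lay above the other 6. The mean moved from 19.9% ± 0.358 at 34 h to 21.0% ± 0.283 at 72 h (SD, n = 2), a difference of 1.08 percentage points. No test was made of this sum over the genes. The step at 72 h depended on the scaling: after rescaling to a trimmed mean of the log ratios between libraries (TMM) the share was 19.8% and 20.7% at 34 h and 20.3% and 21.0% at 72 h, and the groups overlapped. Without the mitochondrially encoded genes it was 21.9% and 22.7% at 34 h and 23.2% and 23.6% at 72 h, with no overlap. In bulk RNA of mixed cells, fewer cells of a type and less RNA per cell cannot be told apart, and the pluripotency, neural progenitor, mesendoderm and neural crest sums moved over the same hours. DCX and STMN2 were raised then too, while the sum of the neuron markers overlapped between 34 and 72 h. Their part in the share was not tested.

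**Figure D1:**
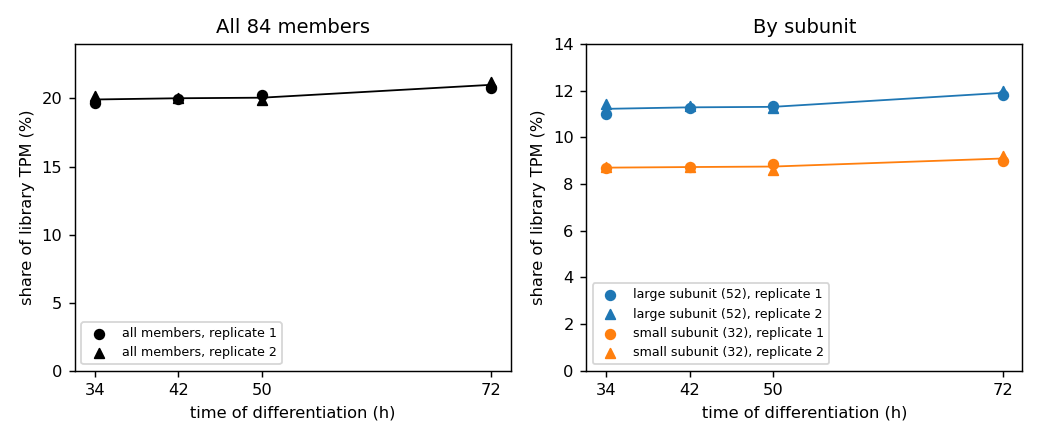
Share of each library's TPM (%) held by the 84 ribosomal protein genes (left) and by the 52 large and 32 small subunit genes (right) against time of differentiation (h). Circles are replicate 1, triangles replicate 2 and lines join the means of 2 libraries; both 72 h libraries (20.8% and 21.2%) lie above the others.

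Both subunits took part in the higher share at 72 h. The large subunit genes held 11.2% ± 0.314 at 34 h and 11.9% ± 0.140 at 72 h, and the small subunit genes 8.70% ± 0.0440 and 9.09% ± 0.142 (SD, n = 2). The ratio of large to small subunit TPM stayed between 1.27 and 1.31 in all 8 libraries.

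Most of the genes were expressed at similar, high levels. In every library 72 of the 84 reached 1000 TPM and 81 reached 50 TPM. The 5 with the highest mean level were RPL41, RPS27, RPS2, RPS18 and RPS29. RPL41, a very small basic protein of the large subunit, stood at 5584 and 6163 TPM at 34 h, 5608 and 6132 at 42 h, 5733 and 5658 at 50 h, then 6076 and 6933 at 72 h. RPS27, a zinc finger protein of the small subunit, stood at 5372 and 5599, 5775 and 6268, 5975 and 5752, and 6135 and 6403 TPM at these times. Both 72 h libraries of RPS27 lay above both 34 h libraries, while those of RPL41 overlapped them. RPS2, a small subunit protein near the messenger RNA entry, stood at 4783 and 4576, 4715 and 4633, 5295 and 4538, and 5091 and 5527 TPM. RPS18, a protein of the small subunit head, stood at 4335 and 4706, 4284 and 4410, 4699 and 4363, and 4674 and 4862 TPM. RPS29, a zinc-binding protein of the small subunit, stood at 4861 and 4391, 4434 and 4301, 4488 and 5137, and 4121 and 4198 TPM. The RPS29 libraries of 72 h were its lowest, and those of RPS2 and RPS18 had no such order. By limma none of the 5 passed the threshold at 72 h against 34 h. Quantile normalization called RPS2 (change 0.27, adjusted p = 0.0430).

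The low end was held by paralogs and by RPL9. RPL10L, a retrogene of RPL10 known from testis, was listed at 0 in all 8 libraries, and RPL3L, the striated muscle paralog of RPL3, reached at most 1.04 TPM. These were the 2 genes that did not pass the filter. Above them came RPL39L with a mean of 53.4 TPM, RPL26L1 with 68.4, RPL7L1 with 74.3, RPL9 with 132, RPS27L with 215, RPL22L1 with 225 and RPL36AL with 252 TPM. RPS26 had a mean of 628 and RPL22 of 970 TPM. RPL9 was thus the lowest gene with no paralog name in the set. The median over the 81 genes with at least 50 TPM in every library lay between 2325 and 2575 TPM. Whether the assignment of reads has a part in the low level of RPL9 was not tested.

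The order of levels was nearly the same at every time. Across the 82 genes the mean log2 levels of 34 and 72 h correlated at r = 0.988, and those of 34 and 42 h at r = 0.999, a description over genes measured in the same libraries. At 42, 50 and 72 h the median change from 34 h was 0.01, 0.00 and 0.07, beside 0.01, 0.04 and 0.06 over all 14908 genes tested. At 72 h 56 genes lay above 0 and 26 below, and the interquartile range of the changes ran from -0.03 to 0.15. For 79 of the 82 the change was less than 0.3 in size. The median standard error of these changes was 0.081.

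**Figure D2:**
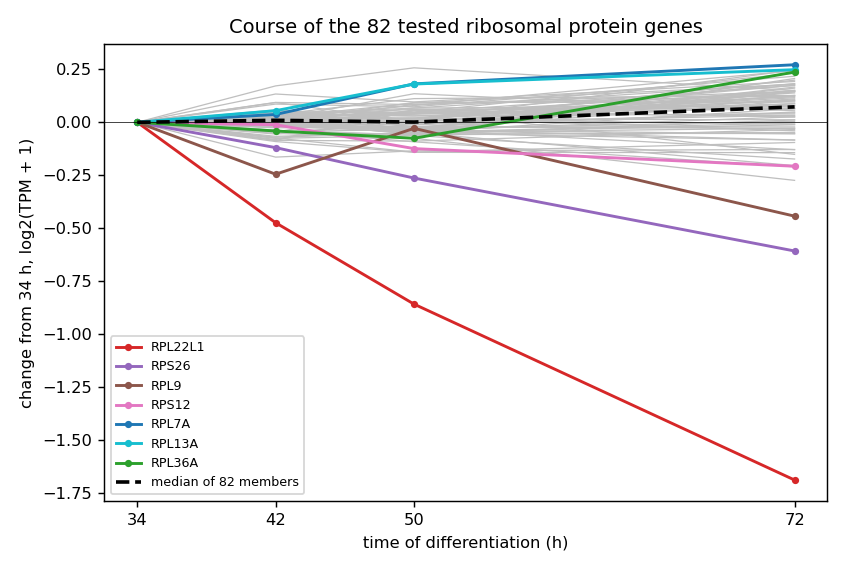
Change from the 34 h mean on the log2(TPM + 1) scale against time (h) for the 82 tested ribosomal protein genes. Grey lines are single genes, the dashed line is their median and coloured lines are the 7 genes called at 72 h; RPL22L1 falls away from the bundle at each later time, to -1.69 at 72 h, and RPS26 to -0.61.

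Few of the genes passed the test. Limma called 1 of 82 at 42 h against 34 h, with 2.58% called over all genes tested, and 1 at 50 h, with 6.26% over all genes. In both comparisons the gene was RPL22L1, and it was lowered. At 72 h against 34 h 7 of 82 were called, which is 8.54%, beside 24.0% of all genes tested. RPL7A, RPL13A and RPL36A were raised, and RPL22L1, RPS26, RPL9 and RPS12 were lowered. After TMM rescaling 1 was raised and 5 were lowered, beside 1649 and 1883 of all 14899 genes tested. After quantile normalization 4 were raised and 5 lowered, beside 1638 and 1796 of all 14908 genes. RPL7A was raised under both scalings and RPL13A and RPL36A under neither, while the 4 lowered genes stayed lowered under both. The gene added by TMM rescaling was RPL14 (change -0.26, adjusted p = 0.0376). With the replicate number as a block 10 were called, and the share of all genes called with it is not given here. The added 3 were RPL17 (change 0.21, adjusted p = 0.0499 with the block and 0.0555 without it), RPL37A (0.17, 0.04998 and 0.196) and RPS19 (0.23, 0.0388 and 0.0782). Both 72 h libraries lay above both 34 h libraries for 33 of the 82 genes (40.2%, beside 36.7% of all genes) and below them for 15 (18.3%, beside 27.9%).

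Between neighbouring times, 0 of 82 were called at 50 h against 42 h by limma, where 0.0939% of all genes were called. At an unadjusted p under 0.05 there were 2, and the fit with the replicate block also called 0. At 72 h against 50 h RPL22L1 was lowered and RPL36A raised, which is 2 of 82, beside 7.33% of all genes. The block called RPL17 there as well (change 0.26, adjusted p = 0.0486 with it and 0.0520 without it), which made 3. In limma's moderated F-test over the 3 comparisons with 34 h, 4 genes were called (RPL22L1, RPS26, RPL7A and RPL36A), beside 17.4% of all genes.

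To ask which genes left the common course, the median log2 level of the 81 genes with at least 50 TPM everywhere was subtracted in each library before the fit. None of the 82 was then called at 42 h against 34 h, where 2.19% of all genes were called and 2 of the 82 had an unadjusted p under 0.05. At 50 h 1 was called, RPL22L1, beside 5.16% of all genes. At 72 h 5 were called, beside 20.6% of all genes, and all 5 were lowered: RPL22L1 by -1.76, RPS26 by -0.68, RPL9 by -0.52, RPL14 by -0.29 and RPS12 by -0.28 (limma adjusted p = 2.16e-05, 0.00286, 0.0114, 0.0365 and 0.0238). None was raised on this scale; RPL7A had an adjusted p of 0.0807, RPL36A of 0.183 and RPL13A of 0.233. At 72 h against 50 h RPL22L1 (-0.89) and RPL9 (-0.48, adjusted p = 0.0385) were called, beside 6.46% of all genes. A change of at least 0.5 from the median course within both replicate numbers was seen for RPL22L1 at 50 and 72 h and for RPS26 at 72 h, and for no other gene with a mean of at least 5 TPM.

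The annotated starts of the 5 genes called in the centred fit (RPL22L1, RPS26, RPL9, RPL14 and RPS12), of the 3 raised at 72 h and of some paralogs with their relatives are printed here because the TOP motif begins at the first transcribed base. Each line gives 15 bases before the RefSeq start and 15 bases from it, 5′ to 3′ on the gene's strand, from the promoter table of GRCh38.p14. Capitals mark the unbroken run of C and T that opens with a C at the start.
RPL22L1 (chr3:170870181-170870210, minus strand): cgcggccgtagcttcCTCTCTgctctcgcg
RPL22 (chr1:6199581-6199610, minus strand): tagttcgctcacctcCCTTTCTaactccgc
RPS26 (chr12:56041903-56041932, plus strand): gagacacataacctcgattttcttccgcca
RPL9 (chr4:39458908-39458937, minus strand): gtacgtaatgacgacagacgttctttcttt
RPL14 (chr3:40457324-40457353, plus strand): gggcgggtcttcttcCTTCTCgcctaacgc
RPS12 (chr6:132814554-132814583, plus strand): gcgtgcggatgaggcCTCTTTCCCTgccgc
RPL7A (chr9:133348203-133348232, plus strand): ccacaattccctttcCTTTCTCTCTCCTCC
RPL13A (chr19:49487593-49487622, plus strand): cgacaaaacctcctcCTTTTCCaagcggct
RPL36A (chrX:101390996-101391025, plus strand): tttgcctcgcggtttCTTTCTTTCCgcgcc
RPL36AL (chr14:49620612-49620641, minus strand): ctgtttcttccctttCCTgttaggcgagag
RPS27 (chr1:153990747-153990776, plus strand): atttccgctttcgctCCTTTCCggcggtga
RPS27L (chr15:63157463-63157492, minus strand): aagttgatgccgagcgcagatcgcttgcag

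A run of at least 5 pyrimidines opening with C at the start, read on the gene's strand, was present in 47 of the 67 ribosomal protein genes with a promoter entry (70.1%) and in 1404 of 27305 genes with one (5.14%). With the run allowed to begin up to 10 bases from the annotated start, 59 of the 67 had it (88.1%), beside 38.4% of all genes. Among the paralogs 1 of 6 had the run at the start, RPL22L1, whose run of 6 bases was 1 base shorter than that of RPL22. RPS26 and RPL9 had no such run at the annotated start, where RefSeq places an a or g, but both had one beginning within 10 bases of it. Of the 15 translation factors and partners with an entry 14 had the run. That list was drawn up as genes of TOP messenger RNAs, so this count follows from the choice and is no result. Of 30 ribosome assembly factors 4 had the run, and of 69 mitochondrial ribosomal proteins 6. The median change at 72 h was 0.08 for the 47 genes with the run and 0.04 for the 19 tested genes without it. The ranges overlapped, from -1.69 to 0.27 and from -0.61 to 0.25.

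RPL22L1, an RNA-binding paralog of RPL22, was the gene with the largest change in the set in each comparison with 34 h. It stood at 367 and 330 TPM at 34 h, 246 and 254 at 42 h, 197 and 187 at 50 h, then 103 and 112 at 72 h. The libraries of each time lay below all libraries of the earlier times, with no overlap. The means were 349 ± 26.2, 250.4 ± 5.74, 192 ± 7.06 and 107 ± 6.82 TPM (SD, n = 2), and the level at 34 h was 3.24 times that at 72 h. The change from 34 h was -0.47 ± 0.09 at 42 h (limma, SE; adjusted p = 0.0339), -0.86 ± 0.09 at 50 h (adjusted p = 0.00115) and -1.69 ± 0.09 at 72 h (adjusted p = 1.22e-05). Within the replicate numbers the change at 72 h was -1.83 and -1.55. Between 50 and 72 h it was -0.83 (adjusted p = 0.00158). The calls at 50 h, at 72 h and between 50 and 72 h held in all 19 alternative settings. The call at 42 h held in 10 of 19 and was lost without either library of 34, 42 or 72 h (adjusted p between 0.0602 and 0.203). It was also lost with no filter, with no variance trend and with the compared times fitted alone (adjusted p = 0.145, 0.118 and 0.0982).

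RPL22, which shares its fold with RPL22L1 and binds RNA as well, showed no such course. It stood at 908 and 1020 TPM at 34 h, 1021 and 976 at 42 h, 905 and 970 at 50 h, then 998 and 962 at 72 h. At 72 h it differed from 34 h by 0.03 (limma adjusted p = 0.848), and its 34 h libraries overlapped those of each later time. RPL22L1 amounted to 40.4% and 32.4% of RPL22 at 34 h, 24.1% and 26.1% at 42 h, 21.7% and 19.3% at 50 h, then 10.3% and 11.7% at 72 h. RPL22L1 lies on chromosome 3 (170864875 to 170870483, minus strand) and RPL22 on chromosome 1 (6185020 to 6209389, minus strand) of GRCh38 in GENCODE 29. The pseudogene RPL22P1 was listed at 17.5 to 147 TPM with no order by time, so the level of RPL22 itself is less certain than that of RPL22L1.

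RPS26, a small subunit protein at the messenger RNA exit channel and one of the genes mutated in Diamond-Blackfan anaemia, was the other gene off the course. It stood at 724 and 748 TPM at 34 h, 672 and 683 at 42 h, 676 and 556 at 50 h, then 467 and 500 at 72 h. Both 72 h libraries lay below all others, and the 42 and 50 h libraries lay below those of 34 h. The change at 72 h was -0.61 ± 0.10 (limma, SE; adjusted p = 0.00336), with -0.63 and -0.58 in the replicate numbers. At 50 h it was -0.26 (adjusted p = 0.176). With the TPM of its pseudogenes added the change at 72 h was -0.64. The call held in every setting but the one with no filter on low values, where the adjusted p was 0.05002, just above the threshold.

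RPL9 and RPS12 were lowered by less. RPL9, a large subunit protein, stood at 142 and 154 TPM at 34 h, 119 and 130 at 42 h, 134 and 157 at 50 h, then 113 and 104 at 72 h. Its 72 h libraries lay below all others, those of 42 h came next, and those of 34 and 50 h overlapped. The change at 72 h was -0.44 ± 0.11 (SE) by limma (adjusted p = 0.0212). It was -0.38 (limma adjusted p = 0.0314) with the TPM of the pseudogenes of RPL9 added. RPS12, a protein of the small subunit head, stood at 4650 and 4630, 4556 and 4652, 4215 and 4301, and 4021 and 4017 TPM at the 4 times, stepping down at 50 and again at 72 h. Its change at 72 h was -0.21 ± 0.05 (adjusted p = 0.0273). RPL14, a large subunit protein called in the centred fit and after TMM rescaling but not as deposited (adjusted p = 0.0691), stood at 1688 and 1792, 1741 and 1651, 1573 and 1692, and 1545 and 1463 TPM. The calls of RPL9 and RPS12 were each lost without either library of 34 or 72 h, with adjusted p between 0.0539 and 0.129. With the libraries of 34 and 72 h fitted alone the adjusted p of RPS12 was 0.0525.

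The 3 raised genes all belong to the large subunit, as do 52 of the 84 genes. After quantile normalization RPS2 and RPS4X of the small and RPL7A and RPL36 of the large subunit were raised. RPL7A, an RNA-binding protein of the subunit, stood at 2534 and 2643 TPM at 34 h, 2654 and 2657 at 42 h, 2920 and 2949 at 50 h, then 3095 and 3154 at 72 h. Its libraries were in the order of time without overlap. The change at 72 h was 0.27 ± 0.06 (limma, SE; adjusted p = 0.0116), and the call was lost without 34 h replicate 1 (0.0758) or without either 72 h library (0.0643 and 0.0825). RPL13A, which can leave the ribosome and act as a translational repressor in immune cells, stood at 2677 and 2600, 2817 and 2666, 3154 and 2835, and 3098 and 3171 TPM. Its 50 and 72 h libraries lay above those of 34 and 42 h and overlapped each other, and the change at 72 h was 0.25 (adjusted p = 0.0376, with 0.0796 after TMM rescaling and 0.0572 after quantile normalization). RPL36A stood at 1962 and 2080, 1993 and 1935, 1992 and 1846, and 2409 and 2353 TPM. It was high at 72 h alone, with a change of 0.24 from 34 h (adjusted p = 0.0367, with 0.0885 after TMM rescaling and 0.0773 after quantile normalization) and of 0.31 from 50 h (adjusted p = 0.0291). With only the compared times in the fit RPL36A had an adjusted p of 0.0525 against 34 h and of 0.121 against 50 h. The calls of RPL13A and RPL36A at 72 h against 34 h were each lost without any 1 library of 34, 42 or 72 h, with adjusted p between 0.0544 and 0.175. The call of RPL36A against 50 h was lost without either library of 42 or 72 h or without 50 h replicate 2, with adjusted p between 0.0546 and 0.184.

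**Figure D3:**
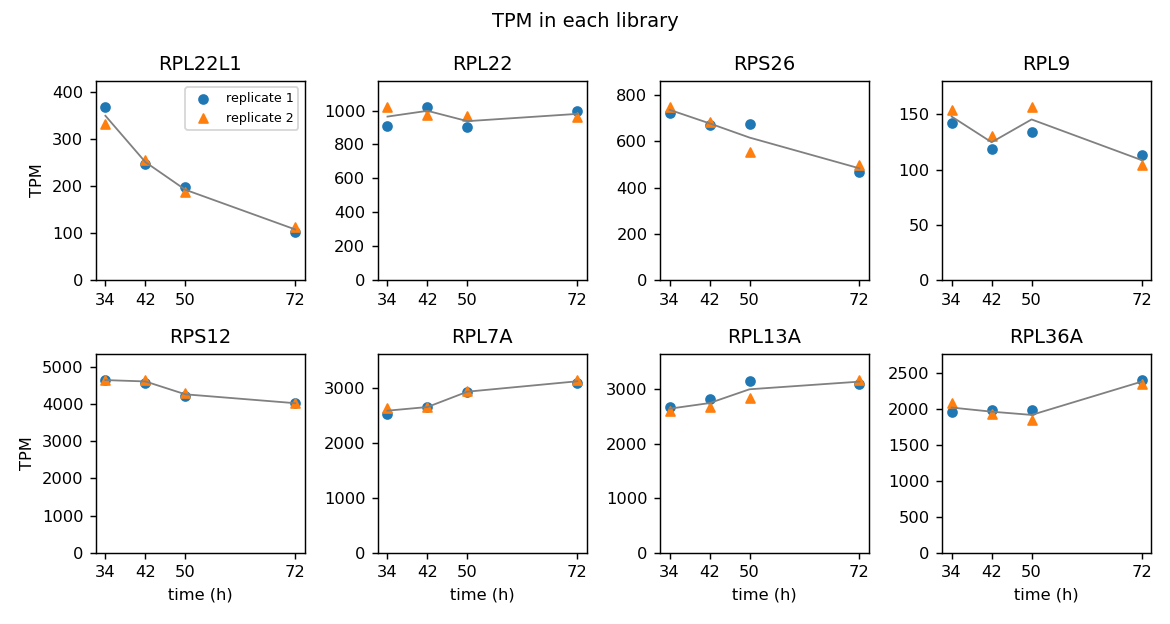
TPM in each library against time (h) for the 7 ribosomal protein genes called at 72 h against 34 h and for RPL22, the relative of RPL22L1, each on its own axis from 0. Circles are replicate 1, triangles replicate 2 and lines join the means; RPL22L1 goes from 367 and 330 TPM at 34 h to 103 and 112 TPM at 72 h, while RPL22 stays between 905 and 1021 TPM.

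The other 5 tested paralogs did not pass the test in any of the comparisons with 34 h. RPL36AL, a near copy of RPL36A on chromosome 14, stood at 259 and 280 TPM at 34 h, 261 and 258 at 42 h, 221 and 294 at 50 h, then 225 and 219 at 72 h. At 72 h it differed from 34 h by -0.27 (limma adjusted p = 0.158), and without either 50 h library it was called (adjusted p = 0.0376 and 0.0386). RPL36AL amounted to 13.2% and 13.5% of RPL36A at 34 h and to 9.35% and 9.32% at 72 h, with 11.1% and 15.95% at 50 h. The ratio was thus lower in both 72 h libraries than in the other 6. Because the coding sequences are close, reads of the 2 genes can be assigned to either.

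RPS27L, a p53-induced relative of RPS27, stood at 178 and 212 TPM at 34 h, 212 and 225 at 42 h, 207 and 259 at 50 h, then 221 and 209 at 72 h. Both 42 h libraries lay above those of 34 h, the other groups overlapped, and the change at 72 h was 0.15 (limma adjusted p = 0.433). RPL26L1 stood at 64.1 and 72.9, 65.7 and 72.7, 66.8 and 72.0, and 62.7 and 70.5 TPM, with replicate 2 higher at every time. Its relative RPL26, whose protein sits at the peptide exit, stood at 2466 and 2869, 2613 and 2937, 2465 and 2900, and 3051 and 3055 TPM. RPL26L1 was flat across time, and the 72 h libraries of RPL26 were its highest. RPL7L1, which is related to RPL7, stood at 79.99 and 79.93, 72.5 and 70.0, 71.7 and 73.8, and 72.4 and 73.7 TPM. RPL7 stood at 3051 and 3104, 3305 and 3260, 2966 and 3212, and 3425 and 3297 TPM. RPL7L1 was highest at 34 h and RPL7 had no order by time, and neither passed the test. RPL39L, a paralog of RPL39 known from male germ cells, stood at 52.4 and 53.9, 53.4 and 46.8, 63.0 and 48.5, and 61.2 and 47.8 TPM, without an order by time. RPL39 stood at 2624 and 2868, 2691 and 2894, 2786 and 2760, and 3004 and 3084 TPM, highest at 72 h.

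RPL3 and RPL10, whose own paralogs were at or near 0, were among the more abundant genes. RPL3, which reaches the peptidyl transferase centre, stood at 3260 and 3269, 3424 and 3341, 3421 and 3312, and 3581 and 3517 TPM. RPL10, which completes the large subunit late in its assembly, stood at 3165 and 3420, 3243 and 3383, 3266 and 3151, and 3087 and 3252 TPM. All later libraries of RPL3 lay above those of 34 h, and those of RPL10 overlapped, and neither passed the test. Together the 8 paralogs, RPL22L1 among them, held 0.101% ± 0.00209 of the TPM at 34 h and 0.0740% ± 0.000895 at 72 h (SD, n = 2).

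Some values rest on how reads were shared between near-identical copies. The table held 1164 pseudogene rows named after these genes, with 0.325% to 0.416% of the TPM in all. Most of this came from a few: RPL23AP42 had a mean of 1132 TPM beside 1285 for RPL23A, RPL21P16 835 beside 1247 for RPL21, RPS28P7 775 beside 1566 for RPS28, and RPS2P5 488 beside 4895 for RPS2. The levels of RPL23A, RPL21, RPS28 and RPS2 are uncertain for this reason. Genes with several rows, such as RPS9 and RPS18, had them summed. For RPS9 the split differed between the replicates: 1 row held 1567 and 857 TPM at 34 h and another 763 and 1257.

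Replicates 1 and 2 differed in a way that many of these genes shared. The differences between replicate 1 and 2 across the 81 genes with at least 50 TPM correlated at r = 0.767 for 34 with 42 h, 0.699 for 34 with 50 h and 0.633 for 42 with 50 h. Over all tested genes the same values were 0.095, 0.195 and 0.142. With 72 h the values over the 81 genes were -0.202, -0.055 and -0.241. These are descriptions over genes measured in the same libraries. The differences followed the GC content of the coding sequence, with r = 0.516, 0.432, 0.617 and -0.447 at 34, 42, 50 and 72 h over 80 genes. The 20 genes of lowest GC content (40.3% to 46.9%) had a median difference of -0.14 at 50 h and the 20 of highest GC content (55.0% to 63.4%) of 0.17, while at 72 h these were 0.05 and -0.08. The extremes at 50 h were RPL5, a protein of the 5S ribonucleoprotein, which stood at 1669 and 2445 TPM, and RPL13, a large subunit protein, which stood at 3423 and 2522 TPM. The change from 34 to 72 h had r = 0.232 with GC content. The part of GC content in that change was not tested.

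**Figure D4:**
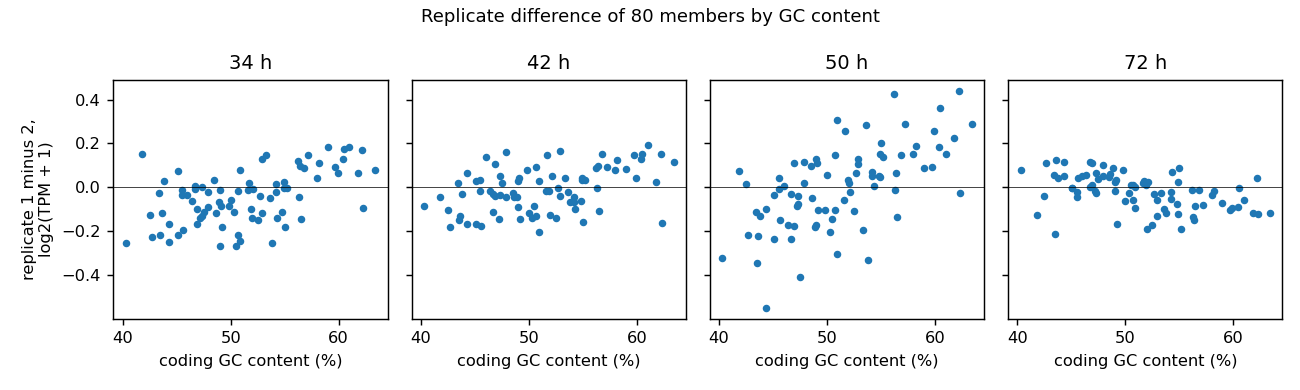
Difference between replicate 1 and replicate 2 on the log2(TPM + 1) scale against GC content of the coding sequence (%) for 80 ribosomal protein genes, 1 point per gene and 1 panel per time. The points rise with GC content at 34, 42 and 50 h (r = 0.516, 0.432 and 0.617) and fall with it at 72 h (r = -0.447).

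Genes that act with the ribosomal proteins were counted from lists of their own at 72 h against 34 h, where 12.7% of all genes tested were raised and 11.3% lowered by limma. Of 23 translation factors and partners 1 was raised and 2 were lowered, with a median change of -0.02, or 0.04 after quantile normalization. EEF1G, a subunit of elongation factor 1, stood at 1754 and 1744 TPM at 34 h and 2154 and 2206 at 72 h (change 0.32, adjusted p = 0.0111). EIF2S3, the gamma subunit of initiation factor 2, stood at 355 and 367 and at 266 and 231 TPM (change -0.54, adjusted p = 0.00353). EIF3M was the other lowered gene (change -0.31, adjusted p = 0.0352), and its call was lost after quantile normalization. EEF1A1, which delivers aminoacyl-tRNA, had 10471 and 10721 TPM at 34 h and 10701 and 10145 at 72 h and did not pass the test. Without any 1 library of 34 or 72 h, with no filter or with no variance trend, 0 of the list were raised and 1 was lowered. The list as a whole held 3.51% ± 0.124 of the TPM at 34 h and 3.48% ± 0.0788 at 72 h (SD, n = 2).

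Of the 35 ribosome assembly factors none was raised and 12 were lowered at 72 h, with a median change of -0.23, and 34 of the 35 lay below 0. After TMM rescaling 16 and after quantile normalization 14 were lowered and none raised. TSR1, a factor of late small subunit maturation, stood at 94.4 and 88.4 TPM at 34 h, 74.7 and 70.8 at 42 h, 64.3 and 69.2 at 50 h, then 49.6 and 53.0 at 72 h (change at 72 h -0.82, limma adjusted p = 0.000715). WDR12, a factor of large subunit processing, went from 100.2 and 121 to 67.9 and 66.9 TPM (change -0.70, adjusted p = 0.0296). NOP16 (change -0.47, adjusted p = 0.0291) and PNO1 (change -0.44, adjusted p = 0.0325) were lowered too. At 50 h against 34 h TSR1 was the 1 gene of the list that was lowered, and at 42 h none was called. The list held 0.475% ± 0.00174 of the TPM at 34 h and 0.392% ± 0.00786 at 72 h (SD, n = 2). The count of lowered genes rested on all libraries of 34 and 72 h: without 1 of these it was between 1 and 3, though at least 29 of the 35 lay below 0 in each such fit. It was also 3 with no filter on low values and 3 with no trend of the variance.

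A list of 10 chaperones of ribosomal proteins and ATPases of large subunit maturation had 8 genes in the table. None was raised and 2 were lowered, MDN1, such an ATPase (change -0.61, limma adjusted p = 0.00946) and PDCD2, a chaperone of RPS2 (change -0.37, adjusted p = 0.0217). With no variance trend 1 of the 8 was lowered. Without 34 h replicate 1 or either 72 h library 0 of the 8 were called, and without 34 h replicate 2 it was 1. For RNA polymerases I and III and their factors 13 genes were tested, from a list of 16. POLR1D (change -0.63, adjusted p = 0.00312) and POLR1B (change -0.56, adjusted p = 0.0438) were lowered and TAF1A was raised (change 0.41, adjusted p = 0.0495). With no filter or with no variance trend 1 of these 13 was lowered. The TAF1A call was lost after TMM rescaling, after quantile normalization, with the replicate block (adjusted p = 0.0633) and without any 1 of the 8 libraries (adjusted p between 0.0628 and 0.183). Without any 1 library of 34 or 72 h 1 gene of this list was lowered. Of 16 regulators of TOP messenger RNA translation 2 were lowered and none raised. EIF4EBP1, the mTOR target that blocks the cap-binding protein, stood at 310 and 280 TPM at 34 h and 128 and 150 at 72 h (change -1.08, adjusted p = 0.00102). EIF4A1, the helicase of the cap-binding complex, stood at 1529 and 1474 and at 1129 and 1152 TPM (change -0.40, adjusted p = 0.00303). EIF4EBP1, EIF4A1, TSR1, EIF2S3, POLR1D and MRPS6 kept their calls in all 18 settings run on these lists. Of 12 small nucleolar RNA host genes that carry the motif, 1 was in the table, SNHG32, with a change of -0.17 (adjusted p = 0.187).

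The proteins of the mitochondrial ribosome, which serves the mitochondrially encoded genes, were added for comparison after the data had been seen. Of 78 tested, 16 were lowered, where 11.3% of all genes were, and 1 was raised, where 12.7% were, at 72 h, with a median change of -0.22, beside 0.07 for the cytosolic genes and 0.06 for all genes. MRPS35 (change -0.75, limma adjusted p = 0.0171), MRPS34 (change -0.54, adjusted p = 0.0213) and MRPS30 (change -0.51, adjusted p = 0.00751) were lowered. MRPS6 went the other way, from 98.0 and 100.6 TPM at 34 h to 211 and 195 at 72 h (change 1.03, adjusted p = 0.000139). The count of lowered genes was 22 after TMM rescaling, 16 after quantile normalization and 13 with the replicate block. Without 1 library of 34 or 72 h it was between 1 and 4, and with no filter or no variance trend it was 7 or 4. The difference between the cytosolic and the mitochondrial genes was not tested.

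**Figure D5:**
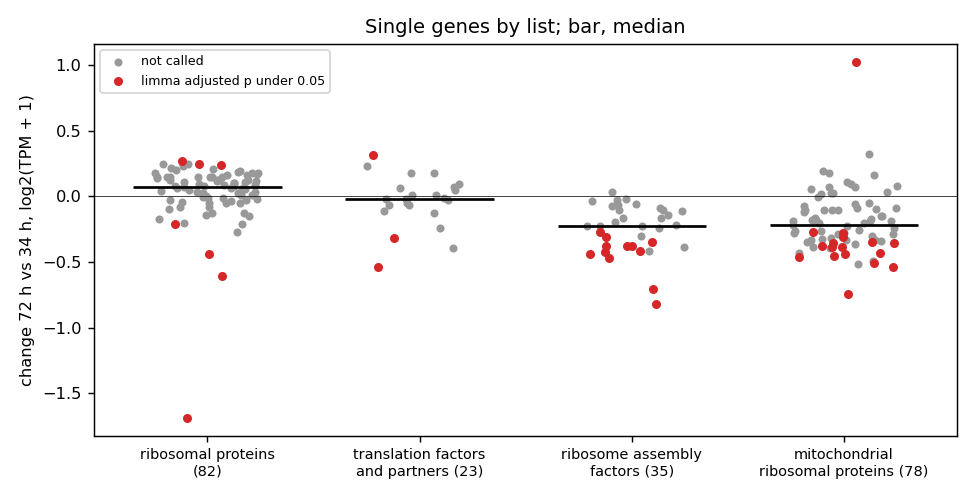
Change between 72 h and 34 h on the log2(TPM + 1) scale for single genes of 4 lists: 82 cytosolic ribosomal proteins, 23 translation factors and partners, 35 ribosome assembly factors and 78 mitochondrial ribosomal proteins. Red points passed limma's test and bars are medians (0.07, -0.02, -0.23 and -0.22); sideways spread within a list has no meaning.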

How the data were processed

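Expression was measured by sequencing of poly(A)-enriched RNA in 8 libraries. The authors deposited TPM per Ensembl gene. Salmon 1.9.0 and GRCh38 are named in the submitters' processing notes; the annotation and the handling of reads with several matches are not given in the sources used here. Each column summed to 1000000, and depth is unknown. TPM of rows with the same symbol were summed. The 14908 genes that reached 1 TPM in 2 or more libraries were fitted as log2(TPM + 1) with limma 3.58.1 (R 4.3.3), with 1 mean per time point, all 8 libraries, a variance that follows the mean level, and Benjamini-Hochberg adjustment over all genes (two-sided, threshold 0.05). On this scale the change of genes with low values is understated. In the centred fit the median log2 level of the 81 genes with at least 50 TPM everywhere was subtracted first. As an alternative centre the log2 of the summed TPM of the ribosomal protein genes was subtracted. The second replicate of each time is described in the series' design text as biological and independent. The replicate number pairs libraries because the labels give it as a batch; same-numbered libraries deviated together at 34, 42 and 50 h (correlation over all tested genes between 0.095 and 0.195) and not at 72 h (-0.104 to -0.045). The genes and lists were chosen with earlier results of these data known. Any ribosomal protein could be named, and values in every library are given for those off the median course by 0.5 in both replicates, the paralogs with their relatives and the 5 of highest level; values of the other called genes were added after they were seen. At most 4 called genes per other list were named, by size of change; EEF1A1 and SNHG32 were named outside this rule. Of the genes 83 matched GENCODE 29 by identifier, RPL7A did not. Promoter windows are from RefSeq (GRCh38.p14), matched by symbol for 67 genes. Alternatives were a pseudocount of 0.1, no filter, a mean of at least 5 TPM, no variance trend, the compared times alone, the replicate block, rows kept apart, TMM and quantile scaling, removal of mitochondrially encoded genes, added pseudogene rows and leaving out each library. Results of some genes, and the share with 1 further list added, are not reported here.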

Additional observations from a re-analysis of the deposited data

How the results depend on the processing

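With 2 libraries a time point, single calls rest on few samples, and TPM gives no reads from which counting error could be had. No change that passed the test turned its direction under any setting. The counts that follow are given without the share of all genes called in the same setting. At 42 h against 34 h 0 ribosomal protein genes were called with no filter, with no variance trend and with the compared times alone, and between 0 and 1 when 1 library was left out. At 72 h against 34 h 1 was called with no filter (RPL22L1) and 2 with no variance trend (RPL22L1 and RPS26), 5 with the compared times alone (RPS12 and RPL36A being lost), and between 2 and 10 when 1 library was left out. At 72 h against 50 h 1 was called with no filter, no variance trend, the compared times alone and quantile normalization, and between 1 and 3 when 1 library was left out. In the centred fits 1 was called at 42 h when the summed TPM of the genes, in place of their median, was the centre. At 72 h 3 were called with no filter, 3 with no variance trend and 3 with the compared times alone, and between 2 and 7 when 1 library was left out. The median change at 42 h lay between -0.029 and 0.023 and at 72 h between 0.021 and 0.099 when 1 library was left out, and at 72 h it was 0.024 after TMM rescaling. With the replicate block, which uses the batch label as pairing, the counts against 34 h were 1, 1 and 10 at 42, 50 and 72 h, with 0 between 42 and 50 h and 3 between 50 and 72 h; it changed no other call of these genes. The share was 22.3%, 22.3%, 22.2% and 23.4% at 34, 42, 50 and 72 h without the mitochondrially encoded genes, and 20.3%, 20.4%, 20.4% and 21.3% with pseudogene rows added. At 42 h it was 20.2% after TMM rescaling, 19.9% without the paralogs and 20.3% over protein-coding rows, which leave out RPL7A. At 72 h it was 20.7% after TMM rescaling. The causes of these moves were not tested beyond what each setting adds or removes.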
